A study of Mus musculus with 90 samples.

Results

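Ribosomes are built in the nucleolus, and 50 genes of that process and of RNA polymerases I and III were followed in single mouse oocytes and embryos. The list held 4 core proteins of box C/D small nucleolar ribonucleoproteins (snoRNPs), 4 of box H/ACA snoRNPs, 5 abundant nucleolar proteins, 12 small subunit processing factors, 11 large subunit assembly factors, 8 genes of the RNA polymerase I machinery and 6 RNA polymerase III subunits. All 50 genes were found by symbol among the 24422 genes counted, and all 50 passed the filter on low counts that left 16511 genes tested. That filter asked for at least 1 CPM, a gene's counts scaled to a common library total, in at least 5 libraries.

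The libraries came from MII oocytes, 2-cell (2c) embryos and 8-cell (8c) embryos, each sequenced singly from the 5′ ends of its transcripts. WT oocytes were compared with oocytes of Plag1 knockout (KO) females, and WT embryos with matPlag1KO embryos, which KO females conceived from WT studs and which therefore carry a paternal Plag1 allele. All females were superovulated, the KO line was kept on the CD-1 strain, and embryos were cultured in KSOM medium. The labels give 21 to 23 h after hCG for oocytes, 45 to 47 h after fertilisation for 2c and 71 to 73 h for 8c. After removal of 12 of 90 libraries with low counts, 16 WT and 14 KO oocytes, 11 and 11 2c embryos, and 15 and 11 8c embryos remained. The labels name neither the donor females nor the separate collection occasions that the paper reports. The p-values therefore measure the spread between single oocytes or embryos, some of which share an occasion and may share a mother.

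RNA polymerase I transcribes the long precursor of the 18S, 5.8S and 28S ribosomal RNAs in the nucleolus, and RNA polymerase III makes 5S RNA and transfer RNAs. Box C/D snoRNPs guide 2′-O-methylation and box H/ACA snoRNPs guide pseudouridylation of the precursor, which is cut and folded together with ribosomal proteins by the small subunit processome and by large subunit assembly factors. Growing oocytes store ribosomes and then silence their nucleoli, and after fertilisation the nucleolar precursor bodies turn into active nucleoli again during the cleavage divisions.

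The study's question concerned a 31-base DNA motif that holds a PLAG1 site, and its use when the embryonic genome is activated. A consensus was therefore built here from the mouse sites listed in the study's supplement, by the most frequent base at each position. It was searched on both strands from 2000 bases before to 500 bases after each annotated start on mm9. The supplement lists sites only of genes that the study called lower in matPlag1KO 2c embryos of these same data. Members may be among those genes, so the matches and shares below are not independent of the 2c result. The sequences that follow are the matches at the 3 members that carried one and were lower in matPlag1KO 2c embryos, with the only exact match among the members, at Wdr43, a small subunit factor named for its site alone. Capitals mark bases that differ from the consensus.
Consensus: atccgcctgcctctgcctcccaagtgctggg
Nhp2l1, first site: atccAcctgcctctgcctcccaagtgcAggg
Nhp2l1, other site: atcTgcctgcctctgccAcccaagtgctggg
Nop10: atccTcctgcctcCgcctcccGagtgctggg
Nop16: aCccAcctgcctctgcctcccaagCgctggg
Wdr43: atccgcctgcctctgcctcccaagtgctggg
The Nhp2l1 sites lay at chr15:81878329-81878359 on the plus strand and chr15:81879422-81879452 on the minus strand, and started at positions -331 and -1424 relative to the annotated start of the gene. The Nop10 site lay at chr2:112101385-112101415 on the plus strand, position -698, and the Nop16 site at chr13:54692747-54692777 on the minus strand, position -1342. The Wdr43 site lay at chr17:71965034-71965064 on the plus strand, position -521.

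With up to 5 mismatches, 19 of 43 members (44.2%) held such a site, against 20.4% of 24320 genes. The 43 are the members with an entry in the promoter table used for the other motifs. Among the 9 members that were called lower at 2c the count was 3 of 9 (33.3%). The paper reports that most such motifs in mouse promoters lay in B1 elements, a class of repeats. Whether the sites counted here lie in B1 elements was not examined. A shorter PLAG1 consensus (GGGGC or GAGGC, then 6 to 8 bases, then GGG, on either strand) was found from 250 bases before to 50 bases after the start in 7 of 43 members (16.3%) and in 22.7% of 32851 RefSeq promoters on GRCm38.p6. The E-box CACGTG, which is the same on both strands and is bound by MYC, a known activator of ribosome genes, was in 8 of 43 member promoters (18.6%) and in 7.15% of all promoters. None of the 9 members called lower at 2c held it (0 of 9). For the shorter PLAG1 consensus and the E-box, a member counted once if any of its promoter entries held the motif. The 32851 promoters were counted entry by entry. All these shares are descriptions of letters and carry no test. The 5 E-boxes that lay upstream of the start, in 4 members, are printed with 12 bases on each side, read from mm9, with the motif in capitals.
Mybbp1a: gtcttctgagccCACGTGtttggctcagca
Nop2: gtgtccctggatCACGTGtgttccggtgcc
Rrn3, near the start: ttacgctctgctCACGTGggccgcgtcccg
Rrn3, farther upstream: gagcgccaaggtCACGTGcacacgcctcta
Utp18: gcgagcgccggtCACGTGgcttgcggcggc
In that order they lay at chr11:72254857-72254886, chr6:125081829-125081858, chr16:13780732-13780761 and chr16:13780565-13780594 on the plus strand and at chr11:93747083-93747112 on the minus strand.

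The libraries kept held 92475 to 2502421 gene counts, with group medians of 148473 (WT 2c) to 649899 (KO oocytes). The 2c libraries are thus the shallowest. Plag1 itself was detected in all 16 WT oocytes and in 3 of 14 from KO females, with 4 counts in the latter. At 2c the libraries labelled matPlag1KO held 91 Plag1 counts, spread over 9 of 11 libraries, and the libraries labelled WT held 1. Those embryos carry a paternal Plag1 allele, so these counts do not contradict the labels, and the targeted gene checks the labels in oocytes but not in embryos. Of 8 oocyte markers all 8 had counts in every group, and their summed CPM had a median of 10070 in WT oocytes and 69.8 in WT 8c embryos. Of 7 2c markers 4 had counts at 2c, with Zscan4f, Tcstv1 and Tcstv3 at 0. In both oocyte groups 4 also had counts, but their median sum was 2.23 CPM in WT oocytes and 248 in WT 2c embryos. Of 8 8c markers all 8 had counts in both 8c groups, but 6 had counts in WT oocytes and 8 in KO oocytes. Their median sum was 670 CPM in WT oocytes, 1185 in WT 8c and 610 in matPlag1KO 8c embryos. The 8c markers thus do not separate 8c embryos from oocytes. The summed level of 11 cumulus cell markers had medians of 16.0 to 54.6 CPM, and Ptx3 was at 0 in all 6 groups.

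At 2c most members had a lower fitted level in embryos labelled matPlag1KO. Their summed share was taken of library totals scaled by the TMM factors of edgeR, so it is not the plain share of counts. It was 1.07% ± 0.256 in WT (SD, n = 11) and 0.626% ± 0.259 in matPlag1KO (SD, n = 11). Of the 50 members, 9 were called lower (edgeR quasi-likelihood test, Benjamini-Hochberg adjusted p under 0.05 over all genes tested), against 2.62% of all genes tested, and 0 were called higher, against 2.3% of all genes. The log2 fold change was below 0 for 44 of 50 members, with a median of -0.65, whereas the median over all genes tested was 0.12. At an unadjusted p under 0.05, 23 members were lower and 1, Rrn3, was higher. DESeq2 called 8 lower and 1 higher, and the likelihood ratio test of edgeR 10 and 0.

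**Figure D1:**
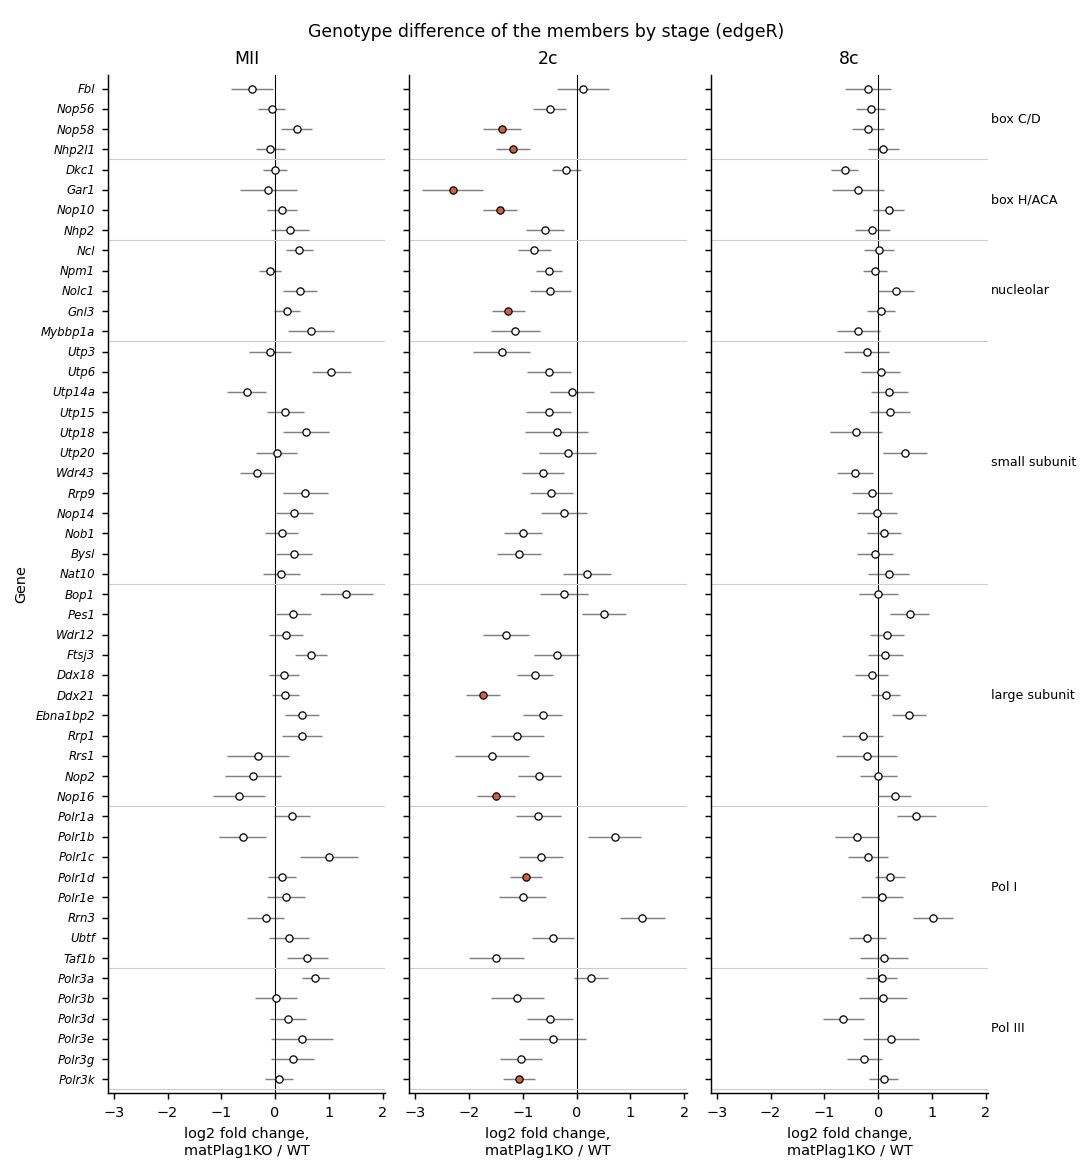
Log2 fold change of matPlag1KO against WT for each of the 50 members (rows, by role) in MII oocytes, 2c and 8c embryos, with bars for the standard error of the edgeR fit and filled points for an adjusted p under 0.05. The 9 filled points are all at 2c and all left of 0.

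The mean of log2(CPM + 1) over the 50 members was 6.40 ± 0.43 in WT and 5.53 ± 0.67 in matPlag1KO 2c embryos (SD, n = 11 each). In 10 of 11 matPlag1KO embryos it lay below the WT median and in 6 below the lowest WT embryo, so the groups overlapped. The libraries had been made in 2 pools, libA and libB in the labels, called A and B here. Within pool A the mean was 6.41 ± 0.52 in 4 WT and 5.73 ± 0.94 in 5 matPlag1KO embryos, and within pool B 6.39 ± 0.42 in 7 and 5.36 ± 0.34 in 6. The 2c groups also differed in other markers. Summed oocyte markers ran from 2030 through a median of 4286 to 7720 CPM in WT and from 3209 through 6352 to 10640 in matPlag1KO. Summed 2c markers ran from 112 through 248 to 1246 CPM in WT and from 234 through 659 to 854 in matPlag1KO. Summed 8c markers ran from 131 through 303 to 673 CPM and from 181 through 372 to 1709. The part of these differences in the result was not tested.

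**Figure D2:**
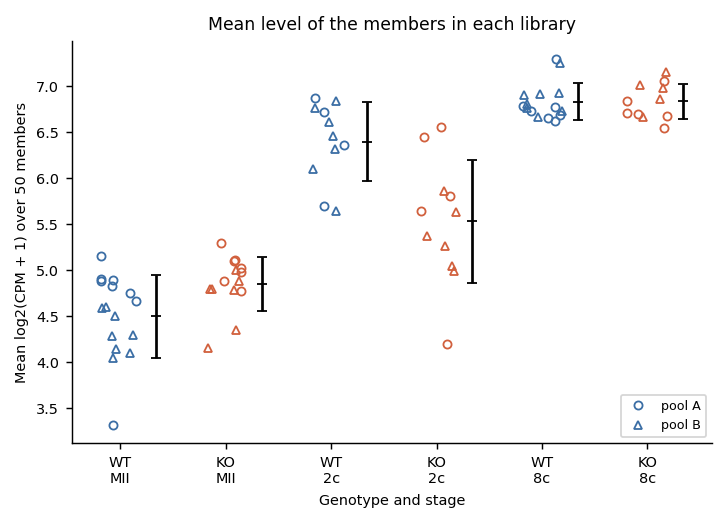
Mean of log2(CPM + 1) over the 50 members in each library (y axis), by genotype and stage (x axis), with circles for pool A, triangles for pool B, and the mean and SD of each group beside the points. The matPlag1KO 2c embryos have a mean of 5.53 and the WT 2c embryos of 6.40, whereas the 8c groups have means of 6.83 and 6.84.

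Scaling and library pool bear on how many members pass. When libraries were scaled by their spike-in counts instead, 2 of the 9 calls stood, Nop10 (-1.28) and Ddx21 (-1.64), and the median of all genes moved from 0.12 to 0.28. In pool A alone 0 genes of the whole table passed in edgeR, with 8 members under an unadjusted p of 0.05 and 38 of 50 below 0, and in pool B alone 9 members were lower. Without replicate 4 of the matPlag1KO embryos 16 members were called lower, and over all fits that left out 1 of the 22 embryos the count ran from 7 to 16.

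Of the 4 box C/D proteins 2 were called lower. Nop58, a core scaffold protein of these particles, had 77.5 CPM in the lowest, 161 in the median and 220 in the highest WT 2c embryo, and 28.3, 50.7 and 187 in matPlag1KO. Of the matPlag1KO embryos, 8 were below the lowest WT embryo, and the highest of them lay inside the WT range. The fitted difference was 2.61-fold (log2 -1.39 ± 0.35 SE, edgeR adjusted p = 0.0113). Nhp2l1 encodes the protein that binds the kink-turn of box C/D RNAs and of U4 RNA. Its level ran from 891 through a median of 1824 to 3406 CPM in WT and from 353 through 763 to 2383 in matPlag1KO, again with 8 of 11 below the lowest WT embryo (log2 -1.18 ± 0.32 SE, edgeR adjusted p = 0.0176). The first 50 bases of its transcript have 1 exact copy elsewhere on mm9, so its counts may be shared with that copy. Nop58 and Gnl3 also host small nucleolar RNAs in their introns. Fbl, the methyltransferase of the particle, stood at 0.12 and its scaffold protein Nop56 at -0.50 on the log2 scale, and neither passed.

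Of the 4 box H/ACA proteins 2 were also called lower. Nop10, a small core protein, ran from 155 through 369 to 659 CPM in WT and from 33.8 upward in matPlag1KO, with a median of 129. All 11 matPlag1KO embryos lay below the WT median and 8 below the lowest WT embryo, a 2.68-fold difference (log2 -1.42 ± 0.32 SE, edgeR adjusted p = 0.00382). Gar1, which helps the particle release its substrate, was sparse, with 88 counts in all WT and 21 in all matPlag1KO 2c libraries. It was detected in 9 WT and 8 matPlag1KO embryos, with medians of 34.7 and 6.69 CPM and highest values of 107 and 18.5. Its log2 fold change was -2.31 ± 0.57 SE (edgeR adjusted p = 0.00896), the lowest of the 50 members. Dkc1, the pseudouridine synthase of the same particle, stood at -0.19 ± 0.27 SE (edgeR adjusted p = 0.742), and the core protein Nhp2 at -0.60, so the 4 proteins of 1 particle ranged from -2.31 to -0.19.

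The 5 nucleolar proteins were all below 0, and 1 passed. Gnl3 (nucleostemin), a GTP-binding protein of the nucleolus, ran from 46.0 through 126 to 332 CPM in WT and from 35.3 through 57.1 to 134 in matPlag1KO. The groups overlapped, with 5 of 11 matPlag1KO embryos below the lowest WT embryo (log2 -1.27 ± 0.31 SE, edgeR adjusted p = 0.00757). The start of Gnl3 lies within 500 bases of Pbrm1, and Gnl3 overlaps Glt8d1 by 9 bases, both on the other strand. Whether counting used strand is not given. Mybbp1a, which binds the MYB protein, stood at -1.14 (edgeR adjusted p = 0.124), and Ncl (nucleolin), Npm1 (nucleophosmin) and Nolc1 had -0.79, -0.52 and -0.49 without passing.

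Of the 12 small subunit factors none passed, although 11 were below 0 and their median was -0.50. Utp3, named after its value was seen, had the lowest value of them, -1.39 ± 0.53 SE, with an edgeR adjusted p of 0.0986. Nob1, the nuclease that makes the 3′ end of 18S RNA, had -0.99 and an adjusted p of 0.0794. At an unadjusted p under 0.05 there were 3 such factors.

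Large subunit factors had 2 of 11 called lower. Ddx21, a DEAD-box helicase that acts in RNA polymerase I transcription and in processing, ran from 120 through 175 to 463 CPM in WT and from 28.4 through 52.0 to 187 in matPlag1KO. All but 1 of the 11 matPlag1KO embryos lay below the lowest WT embryo, a 3.34-fold difference (log2 -1.74 ± 0.32 SE, edgeR adjusted p = 0.000472). Nop16 ran from 161 through 359 to 687 CPM in WT and from 28.6 through 125 to 335 in matPlag1KO. All 11 matPlag1KO embryos were below the WT median, 10 of 11 WT embryos were above the highest matPlag1KO embryo, and 8 matPlag1KO embryos were below the lowest WT embryo (log2 -1.5 ± 0.35 SE, edgeR adjusted p = 0.00592). Its start lies within 500 bases of Higd2a on the other strand, and whether counting used strand is not given. Wdr12, which forms the PeBoW complex with Pes1 and Bop1, missed the threshold (log2 -1.32 ± 0.43 SE, edgeR adjusted p = 0.051), and its start overlaps Carf on the other strand. Its level ran from 18.2 through 34.7 to 78.8 CPM in WT and from 3.53 through 13.8 to 39.0 in matPlag1KO. Pes1 had 0.50 ± 0.41 SE (edgeR adjusted p = 0.507) and Bop1 -0.23 ± 0.45 SE (adjusted p = 0.831), so the sign of neither transcript was resolved.

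**Figure D3:**
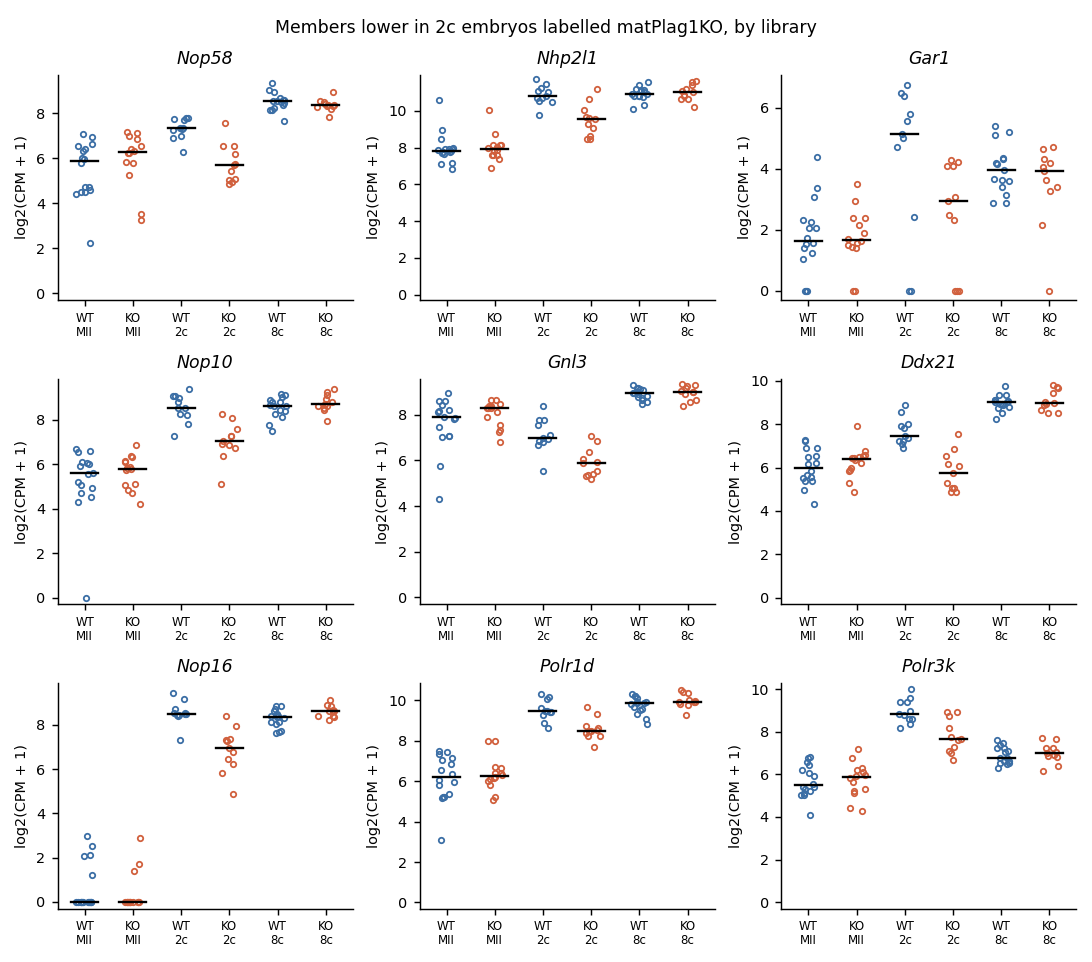
Log2(CPM + 1) of the 9 members called lower at 2c, in each library (points) by genotype and stage, with a line at the median. In 2c embryos the matPlag1KO points reach lower than the WT points in 8 of the panels, whereas for Gar1 both groups hold libraries without counts.

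In the RNA polymerase I group 1 of 8 members passed. Polr1d, a subunit shared with RNA polymerase III, ran from 391 through 719 to 1295 CPM in WT and from 207 through 360 to 803 in matPlag1KO. The difference was the weakest of the 9 calls (log2 -0.94 ± 0.30 SE, edgeR adjusted p = 0.0487) and was lost in 17 of 22 fits without 1 embryo. Taf1b, a subunit of the promoter selectivity factor SL1, ran from 15.6 through 47.5 to 75.1 CPM in WT and from 0 through 10.6 to 41.6 in matPlag1KO without passing (log2 -1.49 ± 0.52 SE, edgeR adjusted p = 0.0695). Rrn3, the initiation factor that recruits the polymerase, stood on the other side with 1.22 ± 0.42 SE (adjusted p = 0.0667). Its median was 50.3 CPM in WT and 105 in matPlag1KO, and the range in matPlag1KO, 15.9 to 416, held that of WT from 13.9 to 203 almost whole. DESeq2 called Rrn3 higher (log2 1.42).

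Among the 6 RNA polymerase III subunits Polr3k passed, a small subunit needed for RNA cleavage at termination. It ran from 287 through 453 to 1019 CPM in WT and from 102 through 199 to 485 in matPlag1KO, with 8 of 11 matPlag1KO embryos below the lowest WT embryo (log2 -1.08 ± 0.30 SE, edgeR adjusted p = 0.021). Without replicate 6 of the WT embryos its adjusted p was 0.0598. Polr3a, the largest subunit, stood at 0.27, and the other 4 had -1.10 to -0.45 without passing.

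A further 142 genes of ribosome assembly and of both polymerases, listed beside the members and chosen with earlier results known, gave 141 tested genes. At 2c 21 of them were called lower, against 2.62% of all genes tested, and 1 higher, against 2.3%, and their median was -0.62, against 0.12 over all genes. The 21 held 7 of 44 large subunit factors, 4 of 39 small subunit factors, 3 of 7 box C/D assembly factors, 3 of 12 genes of RNA polymerase I, 2 of 16 of RNA polymerase III and 2 of 21 of the exosome and RNase MRP, and none of 2 box H/ACA factors. Nsa2, a factor of the large subunit precursor, had -1.68 ± 0.29 SE (edgeR adjusted p = 0.000149). Fcf1, a small subunit nuclease, had -1.73 ± 0.35 SE (adjusted p = 0.00139), and Brf2, an initiation factor of RNA polymerase III, had -1.27 ± 0.32 SE (adjusted p = 0.0104). The gene called higher was Efl1, the GTPase that helps release eIF6 from new large subunits, with 2.29 ± 0.58 SE (adjusted p = 0.011).

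In MII oocytes 0 of 50 members were called, in either direction, by edgeR, by its likelihood ratio test or by DESeq2, against 0.781% of all genes in edgeR. At an unadjusted p under 0.05, 4 were higher and 0 lower, and the median log2 fold change was 0.20 against 0.00 over all genes. Oocytes with the same position code (such as A1) in both pools, which were of opposite genotype, deviated together, and with that code as a replicate block 3 members were called higher. These were Polr3a (0.66 ± 0.14 SE, edgeR adjusted p = 0.000313), Utp6 (1.31 ± 0.38 SE, adjusted p = 0.0179) and Ftsj3 (0.54 ± 0.17 SE, adjusted p = 0.0316), of which Utp6 and Ftsj3 are named because they passed there. In that fit 4.92% of 12978 genes were higher and 1.18% lower.

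Oocyte markers had a median sum of 10070 CPM in WT and 17210 in KO oocytes, and their part in these values was not tested.

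In 8c embryos 0 of 50 members were called by edgeR, by its likelihood ratio test or by DESeq2, against 1.74% of all genes in edgeR. At an unadjusted p under 0.05 there were 1 higher (Rrn3, 1.03 ± 0.37 SE, edgeR adjusted p = 0.136) and 1 lower (Dkc1, -0.62 ± 0.26 SE, adjusted p = 0.216). Of the TMM-scaled library totals the members took 1.82% ± 0.328 in WT (SD, n = 15) and 1.83% ± 0.261 in matPlag1KO (SD, n = 11). Their median log2 fold change was 0.03. Ddx21, which was far apart at 2c, had medians of 515 and 496 CPM here, and Nop10 of 393 and 414. Summed 8c markers ran from 806 through a median of 1185 to 2277 CPM in WT and from 276 through 610 to 2047 in matPlag1KO, and their part in the result was not tested.

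Whether the genotype difference itself changed between stages was tested as an interaction. Against oocytes, 5 of 50 members had a lower difference at 2c, compared with 1.68% of all genes tested, and they were Ddx21, Nop58, Gnl3, Nop10 and Taf1b, with differences of log2 fold changes from -2.09 to -1.5 and a median of -1.04 over the members against 0.14 over all genes. Against 8c embryos, 3 of 50 did, compared with 1.13% of all genes, and they were Ddx21, Nop10 and Nop16, with -1.88 to -1.62. None had a higher one in edgeR, with 2 at an unadjusted p under 0.05 against oocytes and 0 against 8c, and DESeq2 called 1 and 0. With spike-in sizes 5 members passed against oocytes, with Polr3k in place of Taf1b, and 0 against 8c embryos. With the 12 libraries of low counts kept, 1 member passed against oocytes (Taf1b) and 0 against 8c embryos.

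For the steps between stages, counts were set against the spike-in RNA of each library, so that polyadenylated RNA per oocyte or embryo was compared. Reverse transcription was primed with oligo(dT), so a change of poly(A) tail cannot be told apart from a change of amount. How many cells an embryo holds and how much RNA each cell holds cannot be told apart in these values. From MII to 2c in WT, 17 of 50 members rose and 17 fell (edgeR), whereas 14.1% of all genes rose and 51.3% fell, with medians of -0.29 and -1.46. With TMM sizes, which follow the share of counts, 31 members rose and 5 fell. The shares over all genes given for these steps are on the spike-in scale only, so counts with TMM sizes have no such share beside them. In KO oocytes to matPlag1KO 2c embryos 7 rose and 26 fell, against 13.5% and 50.3% of all genes, with medians of -1.55 and -1.42, and with TMM sizes 23 rose and 8 fell. Of the 17 members that rose in WT 6 also rose in matPlag1KO (35.3%), which is 6 of the 7 there (85.7%). Of the members that fell, 15 did so in both (88.2% of 17 and 57.7% of 26). The same overlaps over all genes were not computed, so these shares cannot be read as particular to the members.

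**Figure D4:**
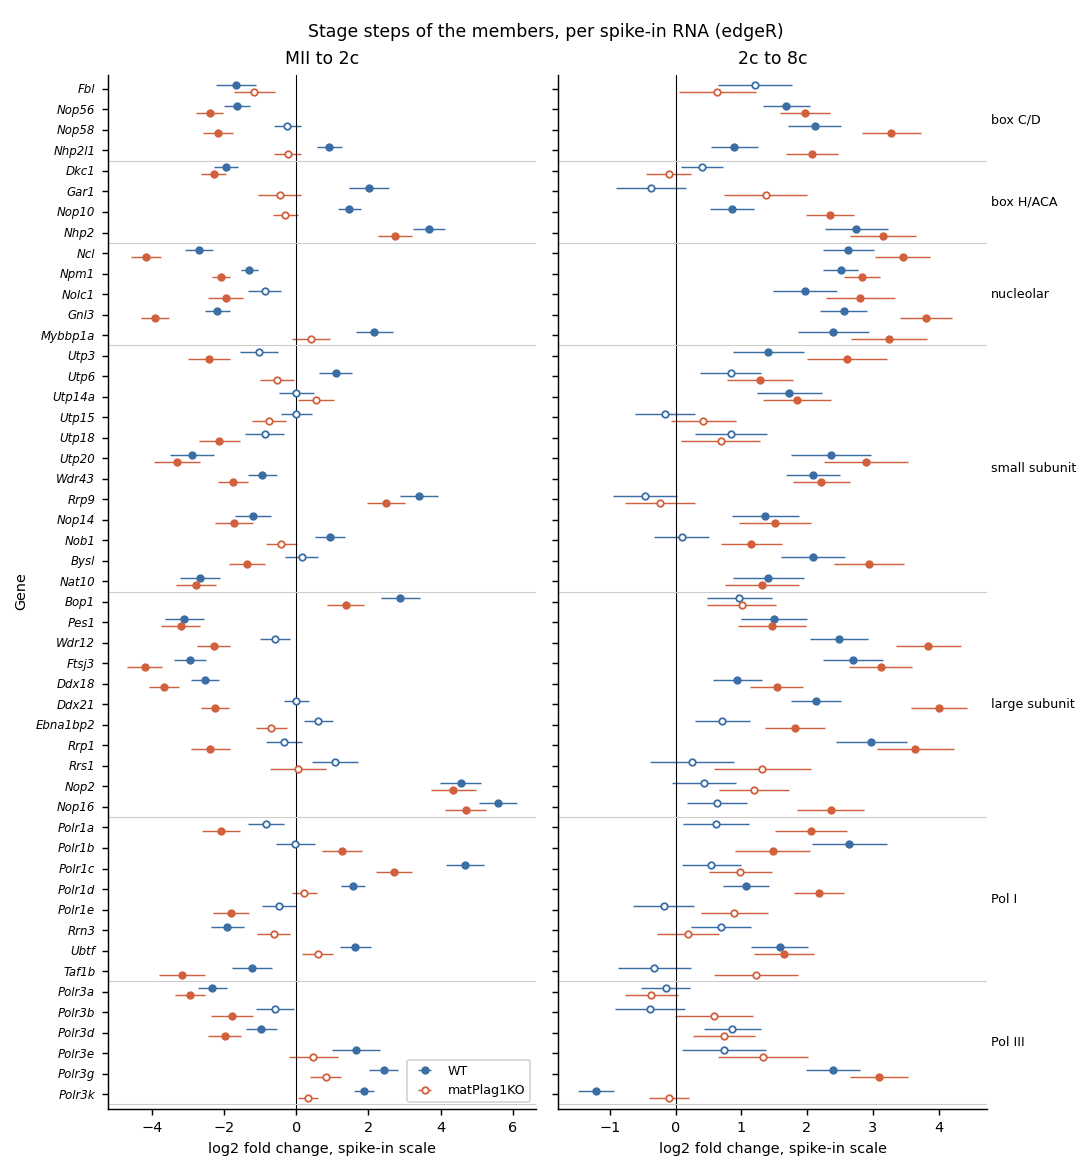
Log2 fold change of each member on the spike-in scale in the step between oocyte and 2c (left) and in the step between 2c and 8c (right), in WT and matPlag1KO, with the standard error of the edgeR fit as a bar and filled points for an adjusted p under 0.05. In the first step points lie on both sides of 0, and in the second step 27 WT and 32 matPlag1KO members rose.

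Members of the same particle took different courses in that step. In WT the H/ACA proteins Nhp2, Gar1 and Nop10 rose by log2 3.68 ± 0.45, 2.02 ± 0.55 and 1.47 ± 0.32 (SE), while Dkc1 had -1.94 ± 0.33 on the same scale and fell (edgeR adjusted p = 5.68e-07), a fall that was not called with TMM sizes (-0.37). Per 10000 spike-in counts, Nhp2 had a median of 3.03 in WT oocytes, 120 in 2c and 798 in 8c embryos, and Dkc1 had 92.0, 29.9 and 36.0. In matPlag1KO the same step was 2.74 for Nhp2, -0.46 for Gar1 and -0.30 for Nop10, and of these 3 Nhp2 alone passed. With TMM sizes Gar1 and Nop10 were called higher in that step too (1.33 and 1.45), so their direction in matPlag1KO flips with the scaling.

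Some members were hardly counted in oocytes. Nop16 was detected in 5 of the 16 WT and 3 of the 14 KO oocytes, and in every 2c embryo of both groups. It rose by log2 5.59 ± 0.53 in WT (edgeR adjusted p = 1.17e-15) and by 4.70 ± 0.57 in matPlag1KO. Polr1c, which RNA polymerases I and III share, was detected in 7 of the 16 WT oocytes and rose by 4.67 ± 0.53 in WT and 2.70 ± 0.50 in matPlag1KO. Rrp9, a protein of the U3 snoRNP, rose by 3.39 ± 0.52 in WT and 2.49 ± 0.53 in matPlag1KO. Nop2, an RNA methyltransferase that is named here after its values were seen, was detected in 3 of the 16 WT oocytes and rose by 4.56 ± 0.57 and 4.36 ± 0.62. These 4 rose in both genotypes, and the rise of Nop16, Polr1c and Rrp9 was also called with TMM sizes. For Nop2 that setting was not looked at, and its mean was 0.735 CPM in WT oocytes and 129 in WT 2c embryos.

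Others were counted in the oocyte and fell. Pes1 fell by log2 -3.10 ± 0.53 in WT and -3.20 ± 0.54 in matPlag1KO, and Ncl by -2.69 ± 0.39 and -4.17 ± 0.42. Per 10000 spike-in counts, the median of Ncl went from 253 in WT oocytes to 53.8 at 2c and back to 406 at 8c. Utp20 fell by -2.90 ± 0.62 and -3.30 ± 0.63, and Polr3a by -2.32 ± 0.40 and -2.95 ± 0.41. With TMM sizes these falls kept their direction, but that of Polr3a in WT was not called (-0.52). Fbl had -1.67 ± 0.56 in WT (edgeR adjusted p = 0.00744), but 0.14 with TMM sizes, and Taf1b had -1.23 in WT, but 0.86 with TMM sizes. Neither passed with TMM sizes.

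**Figure D5:**
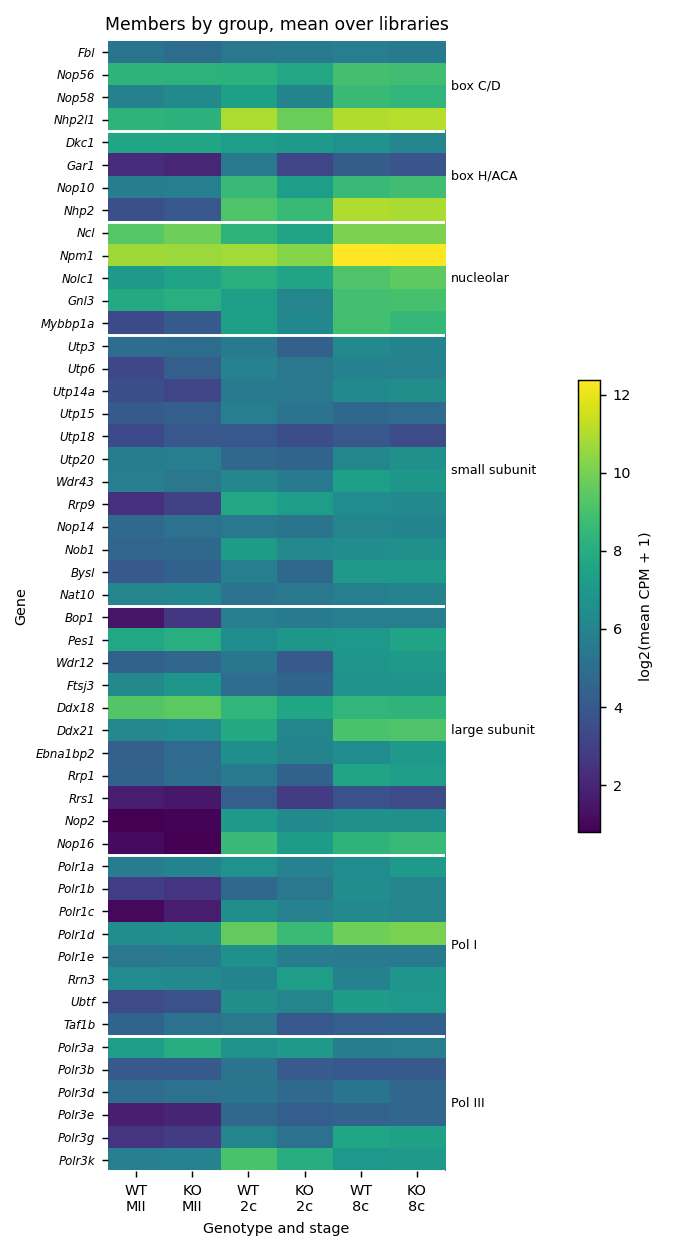
Mean CPM of each member over the libraries of a group, as log2(mean CPM + 1) in colour, with members in rows by role and genotype and stage in columns. Rows are to be read across: Nop16, Nop2 and Polr1c are dark in oocytes and lighter from 2c, and Polr3k is lightest in WT 2c embryos, with means of 536 CPM there and 124 in WT 8c embryos.

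From 2c to 8c, 27 of 50 members rose in WT and 1 fell, against 31.9% and 16.2% of all genes, with medians of 1.02 and 0.53. With TMM sizes 17 rose and 9 fell, again without a share over all genes at those sizes. In matPlag1KO 32 rose and 0 fell (edgeR, 0 also at an unadjusted p under 0.05 and with DESeq2), against 29.1% and 19.5% of all genes, with medians of 1.59 and 0.30. All 27 that rose in WT were among the 32 (84.4% of the latter), and the same overlap over all genes was not computed. The 5 nucleolar proteins rose in both genotypes, with Ncl by log2 2.62 ± 0.39 and 3.45 ± 0.42 and Gnl3 by 2.56 ± 0.36 and 3.81 ± 0.39. Ddx21 rose by 2.14 ± 0.38 in WT and 4.01 ± 0.43 in matPlag1KO. Nop10 rose by 0.86 ± 0.33 in WT, where TMM sizes gave -0.04, and by 2.35 ± 0.37 in matPlag1KO.

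The polymerase III subunits parted in this step. Polr3g, the subunit form known from pluripotent cells, rose by log2 2.43 ± 0.41 from oocyte to 2c and by 2.39 ± 0.41 from 2c to 8c in WT, and by 3.09 ± 0.44 in the second step in matPlag1KO. In the first step in matPlag1KO it had 0.81 ± 0.42 and did not pass (edgeR adjusted p = 0.0814), but was called with TMM sizes (2.47). Polr3k rose by 1.88 ± 0.27 and was then the only member that fell in WT, with -1.21 ± 0.28 (edgeR adjusted p = 0.000155). In matPlag1KO it had 0.33 ± 0.28 and -0.10 ± 0.30 and passed in neither step, and its 8c medians of 107 and 128 CPM in WT and matPlag1KO lay close together. With TMM sizes Polr3k in matPlag1KO was called in both steps (2.09 and -0.93). Polr3a, the catalytic subunit, had -0.15 in WT and -0.37 in matPlag1KO from 2c to 8c without passing, and -1.06 and -1.26 with TMM sizes, where both were called.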

How the data were processed

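Libraries of single oocytes and embryos, with molecular identifiers and added ERCC RNA, were made in 2 pools (A and B). The authors deposited raw counts per gene without normalization, made by alignment to mm9 and counting with HOMER according to the methods and the submitters' processing notes. Whether counting used strand is not given in the sources used here. No column was left unmatched (0). The members, the other gene lists and the tests were chosen with earlier results of these data known.

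Libraries with a median under 1 CPM and genes with at least 1 CPM in fewer than 5 libraries were left out. All 6 groups were fitted together with edgeR 4.0.16 (R 4.3.3), with TMM factors for genotype and spike-in totals for stage comparisons, by the quasi-likelihood test at a Benjamini-Hochberg adjusted p under 0.05. CPM of members use TMM library sizes, whereas the filters and the summed marker CPM use plain library totals. The steps were tested on simulated data. No library was a copy of another in its own group (lowest chi-square per degree of freedom 3.54), and libraries of different groups were not compared. Pairing was checked by correlating, for libraries with the same position code in both pools, the deviations from group means over 8418 genes, and all 14 opposite-genotype pairs of oocytes correlated (0.148 to 0.782), so the code was used there as a replicate block. The 43 promoters came from RefSeq, which matched 43 of 50 members. Not matched were Fbl, Npm1, Utp6, Bop1, Rrs1, Polr3a and Polr3d. Named are members called in a genotype or interaction test, the next by p at 2c up to 12, and the highest and lowest of each role in each WT step, and any other member named was chosen after its values were seen. Noc2l, among 143 other pathway genes listed, was not analysed here. Alternatives covered libraries, filter, scaling, DESeq2 1.42.0, pools, groups in the fit and single embryos left out, of which the last and the likelihood ratio test were added after seeing the data.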

Additional observations from a re-analysis of the deposited data

Results flagged for a closer look

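For 8 results the edgeR test of the difference between the genotype effects at 2 stages passed with the 12 libraries of low counts left out. With those libraries kept, 1 of the 8 passed. Against oocytes, the 2c log2 fold change was lower by the interaction value -1.93 ± 0.41 SE for Ddx21 (adjusted p = 0.00252), -1.78 ± 0.45 for Nop58 (adjusted p = 0.013), -1.5 ± 0.39 for Gnl3 (adjusted p = 0.0168), -1.55 ± 0.42 for Nop10 (adjusted p = 0.0226) and -2.09 ± 0.64 for Taf1b (adjusted p = 0.0475). Taf1b passed here although its genotype difference passed at neither stage. With all libraries kept, the adjusted p was 0.103 for Ddx21, 0.109 for Nop58, 0.121 for Gnl3, 0.0603 for Nop10 and 0.0458 for Taf1b. With spike-in scaling Taf1b did not pass (adjusted p = 0.209).

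Against 8c embryos, the interaction value was -1.88 ± 0.42 SE for Ddx21 (edgeR adjusted p = 0.00676), -1.81 ± 0.47 for Nop16 (adjusted p = 0.0226) and -1.62 ± 0.42 for Nop10 (adjusted p = 0.0238). With all libraries kept, the adjusted p of these 3 was 0.186, 0.15 and 0.1.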

How the results depend on the processing

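The count of members lower at 2c (9) was 2 with spike-in scaling and 0 in pool A alone, and 6 to 10 under the other settings. Without 1 embryo it ran from 7 to 16, and the count higher at 2c from 0 to 1. Members higher at 2c (0) became 1 with median-ratio factors, with DESeq2 and with the groups of the stage only. In oocytes (0 and 0), 1 was lower in pool A, 1 higher in pool B, and 3 higher with the position code as replicate block, and at 8c 1 was higher with the groups of the stage only. No block was fitted at 2c, with 2 same-code pairs of opposite genotype (lowest r 0.0248), or at 8c, where no pair was opposite. All other codes present in both pools at these stages held the same genotype in both. An effect of position can therefore hardly be told apart from genotype at 2c, where the 9 calls lie, and not at all at 8c. Interactions lower against oocytes (5) fell to 1 with all libraries kept and to 3 with median-ratio factors, and 1 was higher with DESeq2. Those against 8c (3) were 0 with all libraries kept, 0 with spike-in scaling and 5 with DESeq2. For stages, TMM scaling gave 31 up and 5 down (WT MII to 2c), 17 and 9 (WT 2c to 8c), 23 and 8 (KO MII to 2c), and 4 down for KO 2c to 8c. The shares over all genes under TMM scaling are not given here. Pool A alone gave 9 up for WT MII to 2c, 16 up for WT 2c to 8c and 20 up for KO 2c to 8c, and pool B alone gave 11 down for WT MII to 2c. The members' median from MII to 2c changed sign with TMM scaling (1.35 in WT, 0.25 in KO) and in pool B alone in WT (1.08). In WT from MII to 2c, Taf1b was at 0.20 in pool B and 0.86 with TMM scaling and Fbl at 0.14 with TMM scaling. Nop10 from 2c to 8c in WT was at -0.0387 and Nolc1 from MII to 2c in KO at 0.0209, both with TMM scaling. The cause of these changes was not tested, and single pools also hold fewer libraries. Depth limits the sparse members most: Gar1 had 88 counts in all WT and 21 in all matPlag1KO 2c libraries.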
